A study of Mus musculus with 3 samples.

Results

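The regions described here are the ends of the 19 mouse autosomes that lie next to the centromere, measured by array comparative genomic hybridisation. On each of chromosomes 1 to 19, every non-control probe that started within 3 Mb of the first probe of the chromosome was taken. This rule uses position only and gave 3998 of 161460 autosomal probes (170305 probes with X and Y), in 19 windows of 116 probes (chromosome 3) to 299 probes (chromosome 19). No window mean came near a change of a whole copy in any line: the highest mean was 0.099 on chromosome 19 and the lowest -0.096 on chromosome 1, on the log2 scale of line over liver. Were every cell to hold 3 copies in place of 2, the value would be 0.58, and with 1 copy it would be -1.

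The study asked about tumours that acquired resistance to inhibition of CSF1R, the receptor on which macrophages and microglia depend, and this series looks at the DNA of the tumour cells. Each of 3 arrays carried Cy5-labelled genomic DNA of a neurosphere line, a culture of floating tumour cells, and Cy3-labelled mouse liver DNA. The lines came from tumours resistant to a CSF-1R inhibitor and were used at passages 2 to 3, in neural stem cell medium. They form 1 group of 3 lines with no untreated or sensitive line, so each ratio compares a line with liver and never resistant with sensitive tumours. Line 1 has its own animal number, while lines 2 and 3 share an animal number and a liver label. Strain, genotype, tumour model, age and sex are not given in the sources used here, nor whether a line is 1 clone. The 3 arrays lay on 1 slide with 0 dye swaps, so a dye or slide effect is common to all 3 and cannot be told apart from a difference between line and liver.

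Mouse autosomes are telocentric: the centromere sits at the very end of the chromosome, with almost no short arm. The centromere itself consists of minor satellite repeats, on which the kinetochore assembles, flanked by long blocks of major satellite repeats packed as heterochromatin. The reference assembly leaves these repeats as a gap, so that an array of unique probes begins on the far side of them. A chromosome gained or lost through faulty segregation takes this end with it. The sequence just beyond the satellites is often rich in recent duplications, which can make a probe there match several places.

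The arrays began at 3.00 to 3.26 Mb on 18 chromosomes and at 8.53 Mb on chromosome 14 (mm9 coordinates). The windows did not differ much from the remaining 157462 autosomal probes in composition: 69.7% of their probes carried a gene name against 67.3%, the mean GC content was 36.8% in both, and the median spacing was 10632 against 10847 base pairs. A CG dinucleotide was found in 31.6% of window probes and in 36.2% of the rest. The telomere repeat unit TTAGGG, searched on both strands, was found in 2.38% of window probes and 2.78% of the rest. The core of the CENP-B box, the motif of minor satellite bound by CENP-B (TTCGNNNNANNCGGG, both strands), was found in 0 of the 170305 probes.

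The first probe of a chromosome marks where the measurement starts, and 5 of them are printed as the deposited scanner files give them, 5′ to 3′, with CG dinucleotides in capitals. The files give no strand. Chromosomes 1 and 10 are shown for their opposite signs, chromosomes 11 and 16 for their brightness and chromosome 14 for its distant start.
chr1:3017293-3017352: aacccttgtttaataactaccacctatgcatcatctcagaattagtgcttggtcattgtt
chr10:3014678-3014737: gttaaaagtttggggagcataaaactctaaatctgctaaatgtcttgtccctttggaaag
chr11:3030764-3030809: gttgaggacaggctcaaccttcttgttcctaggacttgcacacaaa
chr16:3257712-3257771: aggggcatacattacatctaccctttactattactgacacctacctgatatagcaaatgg
chr14:8526343-8526402: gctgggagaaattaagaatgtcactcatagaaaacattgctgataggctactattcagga

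The chromosome 1 probe read -0.42, -0.42 and -0.35 in lines 1, 2 and 3. The chromosome 10 probe read 0.48, 0.31 and 0.46. The first was low and the second high in every line. The chromosome 11 probe, in the pseudogene Pisd-ps1, read 0.70, 0.15 and 0.39 at liver intensities of 8343, 10626 and 8909. The chromosome 16 probe read -0.59, -0.34 and -0.20 at liver intensities of 11152, 8973 and 8457. Both are several times brighter than the median window probe, whose liver intensity was 1064. Among the 19 first probes, 3 (15.8%) had a liver intensity of at least 4 times the autosomal median, against 2.25% of all window probes and 2.20% of the rest of the autosomes. First probes were also shorter than most: 8 of 19 had under 60 bases, the shortest 45, against 5.05% of window probes. In limma's test of every probe against 0, 8 of 19 first probes passed, 6 below 0 and 2 above, where 33.5% of all probes passed, 17.4% below and 16.1% above.

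Averaged over the 19 windows, the level was slightly below 0 in each line: -0.0075 in line 1, -0.019 in line 2 and -0.014 in line 3, a mean of -0.013 ± 0.0056 (SD, n = 3). All 3 lines were on the same side of 0, by amounts that a single window exceeds many times. The windows lay below the rest of their chromosomes by -0.0081, -0.028 and -0.023, a mean difference of -0.020 ± 0.010 (SD, n = 3). Against the last 3 Mb of the same chromosomes, the other chromosome end, the differences were -0.024, -0.050 and -0.030, with a mean of -0.035 ± 0.013 (SD, n = 3). The distal ends were above the rest of the chromosomes in the same lines, by 0.015 ± 0.0074 (SD, n = 3), so the gap between the ends came from both sides. Each of these differences had an exact two-sided sign-flip permutation p of 0.25, which is the smallest that 3 lines allow.

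By chromosome the windows split. Of 19, 10 (52.6%) were below 0 in all 3 lines, where 31.3% of all 860 windows of 3 Mb on the array were, and 4 (21.1%) were above 0 in all 3, where 31.2% were. With limma on all 860 windows and Benjamini-Hochberg adjustment, 8 of the 19 passed an adjusted p of 0.05, or 42.1%, against a background of 39.7%. The standard error from limma was the same, 0.0194, for each of the 19. Their p-values thus follow the window mean and not each window's own SD. By direction, 6 windows (31.6%) passed below 0, where 22.0% of all windows did, and 2 (10.5%) passed above 0, where 17.7% did. The share called was close to that of the array as a whole and is not a result about the windows. The SD between the 19 windows was 0.054, against 0.051 between the 788 other autosomal windows. Without line 1, whose array was the noisiest, 5 windows passed (background 27.6%). With lines 2 and 3 averaged as 1 sample because they share an animal number, 5 passed (background 15.9%).

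**Figure D1:**
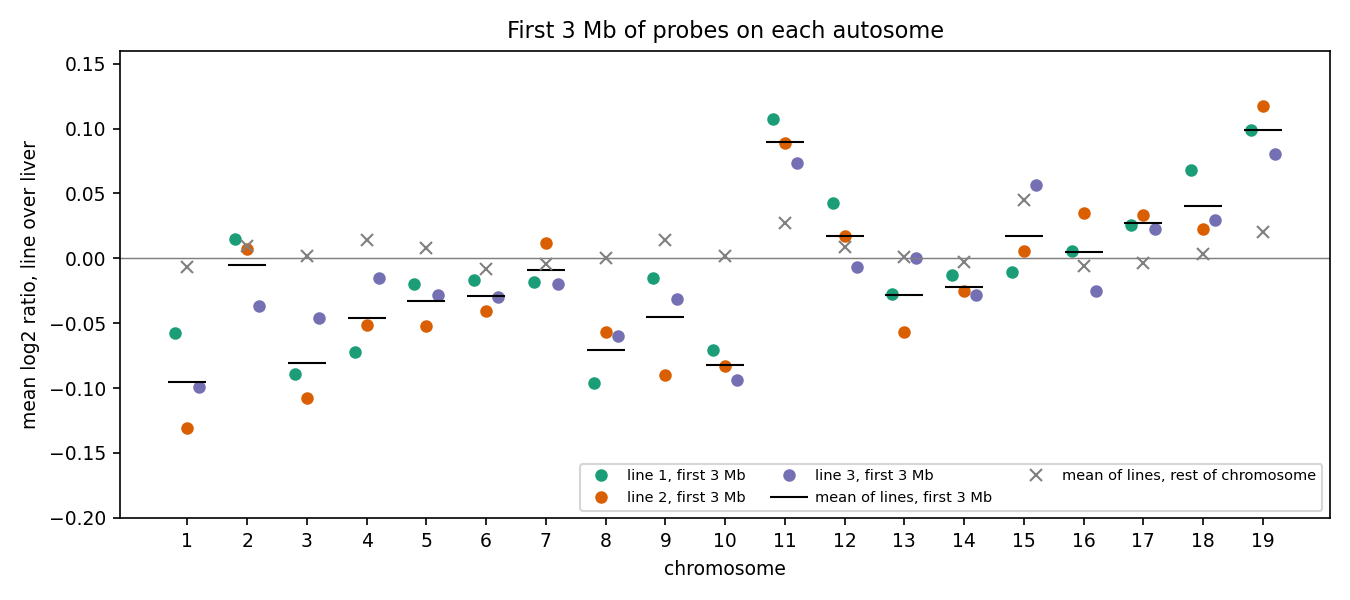
Mean log2 ratio of line over liver in the first 3 Mb of each autosome (y axis) by chromosome (x axis). Points are the 3 lines, bars their mean and crosses the mean of the rest of the chromosome. Chromosomes 11 and 19 lie above 0 and chromosomes 1, 3, 8 and 10 below 0 in all 3 lines, between -0.13 and 0.12, while the rest of each chromosome stays within 0.045 of 0.

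The lowest window was that of chromosome 1 (chr1:3017293-6006459, 171 probes). It read -0.057, -0.13 and -0.099 in lines 1, 2 and 3, with a mean of -0.096 ± 0.037 (SD, n = 3) and an adjusted p of 1.63e-05 by limma. The rest of chromosome 1 averaged -0.0064, and 28 of 807 autosomal windows were lower. It passed under 10 of 11 alternatives that kept the 3 Mb length and changed the values, and gave an adjusted p of 0.0525 with lines 2 and 3 averaged.

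Chromosome 10 followed (chr10:3014678-6009227, 211 probes) at -0.070, -0.083 and -0.094, a mean of -0.083 ± 0.012 (SD, n = 3) with an adjusted p of 0.000200. Chromosome 3 (chr3:3000029-5982629, 116 probes) read -0.089, -0.11 and -0.046, a mean of -0.081 ± 0.032 (SD, n = 3) with an adjusted p of 0.000275. The windows of chromosomes 3 and 10 passed under all 11 alternatives of 3 Mb, although chromosome 10 no longer did over 5 Mb (adjusted p = 0.183). The chromosome 3 window is the sparsest of the 19, both in probes and in genes: 36.2% of its probes carried a gene name.

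Chromosome 8 (chr8:3130823-6084739, 167 probes) read -0.096, -0.056 and -0.060, a mean of -0.071 ± 0.022 (SD, n = 3) with an adjusted p of 0.00151. It was lost without line 1 (adjusted p = 0.0622), after normexp background correction (adjusted p = 0.154) and in a window of 2 Mb (adjusted p = 0.0639). Over 1 Mb and 5 Mb it passed (limma adjusted p = 0.00452 and 0.00137). Chromosomes 4 and 9 passed narrowly, at means of -0.046 ± 0.029 and -0.046 ± 0.039 (SD, n = 3) and adjusted p of 0.0438 and 0.0478. They passed under 5 and 4 of the 11 alternatives. In shorter windows neither passed: chromosome 4 averaged 0.0075 over 1 Mb and -0.0038 over 2 Mb, so its sign turned, and chromosome 9 had adjusted p of 0.0929 and 0.0844. Over 5 Mb both passed, at -0.046 for chromosome 4 (limma adjusted p = 0.0280) and -0.058 for chromosome 9 (adjusted p = 0.00413). The chromosome 4 window read -0.073, -0.051 and -0.015 and the chromosome 9 window -0.015, -0.090 and -0.031, so 1 line of each stayed near 0.

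The highest window was that of chromosome 19 (chr19:3159809-6150725, 299 probes), with 0.099, 0.12 and 0.081 in lines 1, 2 and 3. Its mean was 0.099 ± 0.018 (SD, n = 3), with an adjusted p of 7.82e-06, and 794 of 807 autosomal windows were lower. Chromosome 11 (chr11:3030764-6023821, 295 probes) read 0.11, 0.089 and 0.074, a mean of 0.090 ± 0.017 (SD, n = 3) with an adjusted p of 4.8e-05. Both passed under all 11 alternatives of 3 Mb, with means as low as 0.047 and 0.048. These windows hold the most probes of the 19, and 101 and 65 gene names against 5 in the chromosome 3 window, while the chromosome 7 window, with 67 gene names, averaged -0.0087. The rest of chromosome 19 averaged 0.020 and the rest of chromosome 11 averaged 0.027, so the windows exceeded their own chromosomes by 0.079 and 0.063.

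The other 11 windows did not pass over 3 Mb with the values reported here. The chromosome 18 window read 0.068, 0.023 and 0.030 (adjusted p = 0.0855), but its first 1 Mb averaged -0.065 (adjusted p = 0.0283). In means over 3 Mb the remaining 10 ranged from -0.033 (chromosome 5) to 0.027 (chromosome 17). Of these, 3 passed limma under 1 of the 11 alternatives of 3 Mb. Chromosome 7 did so in the authors' deposited value table (-0.052, adjusted p = 0.00887). Chromosome 13 passed with dim probes left out (-0.048, adjusted p = 0.0352) and chromosome 14 with medians of probes (-0.053, adjusted p = 0.0359). Some of the 10 passed at other lengths. Chromosome 15 was above 0 over 1 Mb (0.060, limma adjusted p = 0.0438) and 2 Mb (0.059, adjusted p = 0.0171). Chromosome 13 was below 0 over 2 Mb (-0.058, adjusted p = 0.0199) and 5 Mb (-0.047, adjusted p = 0.0255), and chromosome 5 over 5 Mb (-0.048, adjusted p = 0.0220). Chromosome 15 was the one whose rest stood out, at 0.045, while its window averaged 0.017. Its lines were spread at -0.010, 0.0057 and 0.057, with line 3 highest. The chromosome 14 window, which starts several megabases farther in than the others, read -0.013, -0.026 and -0.029, within the range of the rest.

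Levels moved with the density of probes and genes. Over the 19 windows the mean level correlated with the number of probes at r = 0.74, with the share of named probes at r = 0.47 and with probe GC content at r = 0.45, against 0.47, 0.39 and 0.47 over the 788 other autosomal windows. These are descriptions over windows that share arrays and probe design, and the part of probe number in the window levels was not tested. When a line fitted to local gene share was subtracted from every probe, chromosomes 1, 3, 4, 8, 9, 10, 11 and 19 still passed limma (background 36.6%). Chromosome 3 moved from -0.081 to -0.057 in that setting. With a line fitted to probe GC content subtracted instead, 7 windows passed (background 39.3%), and chromosome 9 did not (adjusted p = 0.0559). The part of gene share and GC content in the window levels was not tested.

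The 3 arrays gave similar orders of windows. Over 19 windows, r was 0.86 for lines 1 and 2, 0.79 for lines 1 and 3, and 0.83 for lines 2 and 3, against 0.72, 0.63 and 0.68 over the other 788 autosomal windows. The arrays share slide, dyes and probes, and lines 2 and 3 share a liver label, so the values are given without a test. Lines 2 and 3 differed from line 1 by more than probe error (95% interval from blocks of 10 neighbouring probes) in 2 of 19 windows, where 23.4% of autosomal windows did. These were chromosome 1, lower by -0.058, and chromosome 15, higher by 0.041. Line 3 differed from line 2 in 10 of 19 windows, by -0.060 (chromosome 16) to 0.062 (chromosome 3), where 55.8% of autosomal windows did. Such intervals cover probe error within an array and not a repeat of the hybridisation.

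Distance from the centromere changed little. The first 5 tiles of 3 Mb averaged -0.013, -0.013, -0.027, -0.028 and -0.035 over the 19 chromosomes, and the tenth, at 27 to 30 Mb, averaged 0.0046. The centromere windows were thus not the lowest tile of the chromosome arm: the tile at 12 to 15 Mb was lower in all 3 lines, at -0.037, -0.049 and -0.019. Within the windows, the first 0.5 Mb averaged -0.027, -0.029 and -0.034 in the 3 lines and the step at 1.5 to 2 Mb 0.028, -0.00054 and -0.0035. At the outer limit of 3 Mb, the last probes inside ranged from -0.66 to 0.69 with a median of 0.0092, and the first probes outside from -0.51 to 0.47 with a median of 0.080.

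**Figure D2:**
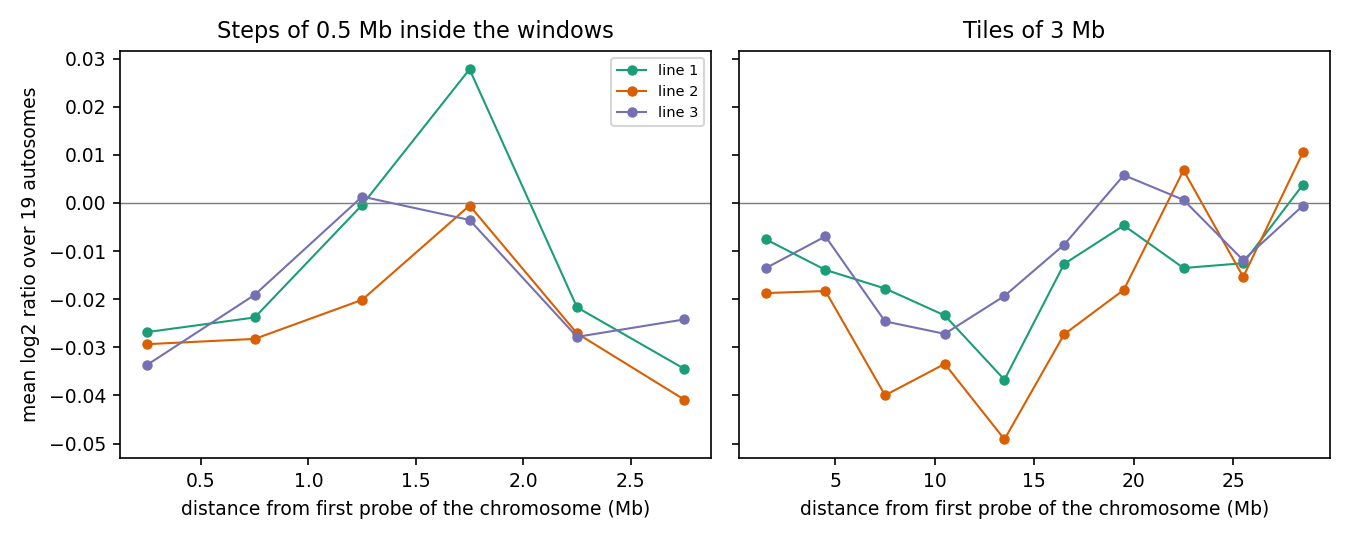
Mean log2 ratio over the 19 autosomes (y axis) against distance from the first probe (x axis, Mb), for steps of 0.5 Mb inside the windows (left) and tiles of 3 Mb (right). Each line of points is 1 neurosphere line. The first 3 Mb tile lies near -0.013 and the tile at 12 to 15 Mb is lowest, at a mean of -0.035.

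A neighbouring tile shared the level on some chromosomes and not on others. On chromosome 1 the next 3 Mb averaged -0.085 (limma adjusted p = 0.00013), and the tile after it -0.016. On chromosome 19 the next 3 Mb averaged 0.073 (limma adjusted p = 0.00107) and the tile after it -0.0088. On chromosome 10 the next tile was at 0.028, and on chromosome 11 it was at 0.049 with the following tile at -0.064. The next tile averaged -0.068 on chromosome 8 and -0.060 on chromosome 9 (limma adjusted p = 0.00219 and 0.00720). On chromosome 3 it was at -0.036 (adjusted p = 0.125) and on chromosome 4 at 0.0077 (adjusted p = 0.779). The low levels of chromosomes 1, 3, 8 and 9 and the high levels of chromosomes 11 and 19 thus kept their sign over the next tile. The low levels of chromosomes 4 and 10 did not.

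The steps of 0.5 Mb show where in a window the level lay, and those named were chosen after their values were seen. On chromosome 1 the first 3 steps were at -0.16, -0.20 and -0.14 and the last at -0.12, with the 2 between them at -0.014 and 0.040. The first and second steps hold Xkr4, a member of the XK-related family of membrane proteins. On chromosome 10 the third step was lowest, at -0.19. On chromosome 11 all 6 steps were above 0, from 0.046 to 0.14, and on chromosome 19 the first step was at -0.018 and the other 5 were at 0.090 to 0.16. On chromosomes 12 and 15, whose windows as a whole were near 0, the last step was low. It was at -0.18 on chromosome 12, with -0.25, -0.15 and -0.16 in the 3 lines. On chromosome 15 it was at -0.20 (12 probes, none with a gene name), with -0.25, -0.19 and -0.16.

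The step at 2 to 2.5 Mb of chromosome 8 (chr8:5134014-5624898, 15 probes, none with a gene name) read -0.38, -0.35 and -0.30 in lines 1, 2 and 3, a mean of -0.34. It was the lowest of all 4710 autosomal steps of 0.5 Mb with at least 10 probes. Of its 15 probes, 12 were below 0 in all 3 lines and 10 passed limma below 0, where 17.4% of all probes did. The step was picked for its low mean in these lines, so this count follows from that choice and is no separate test. The probes ranged from -0.75 to 0.21, so the step is a mixture of clearly low and near-zero probes. The steps on either side read -0.015 and -0.0018. The probes just before the step, starting at chr8:5098419 and chr8:5109475, were also low, at -0.42 and -0.27 (limma adjusted p = 0.0111 and 0.0303). The first probe after it was at 0.036. Low probes thus also lay just outside the step on its near side. The 2 lowest probes of the step are shown as the most extreme of its probes.
chr8:5390424-5390483: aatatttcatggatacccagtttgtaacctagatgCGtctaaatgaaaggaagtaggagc
chr8:5591401-5591460: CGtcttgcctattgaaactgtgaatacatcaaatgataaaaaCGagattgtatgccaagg

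The first of these read -0.94, -0.65 and -0.66 in lines 1, 2 and 3, and the second -0.81, -0.68 and -0.69. The step kept its sign under other processing, at -0.26 after normexp, -0.29 after loess and -0.24 in the authors' deposited value table, where it ranked 1, 1 and 3 from the bottom. It ranked 4, 1 and 2 from the bottom in lines 1, 2 and 3 taken alone, but was picked on the mean of these same lines. Its median liver intensity was 1531, above the window median of 1064, and brighter probes read lower on these arrays. Steps without any gene name averaged -0.068 over 523 autosomal steps and -0.081 over the 12 in the windows. The part of brightness and gene content in this step was not tested.

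**Figure D3:**
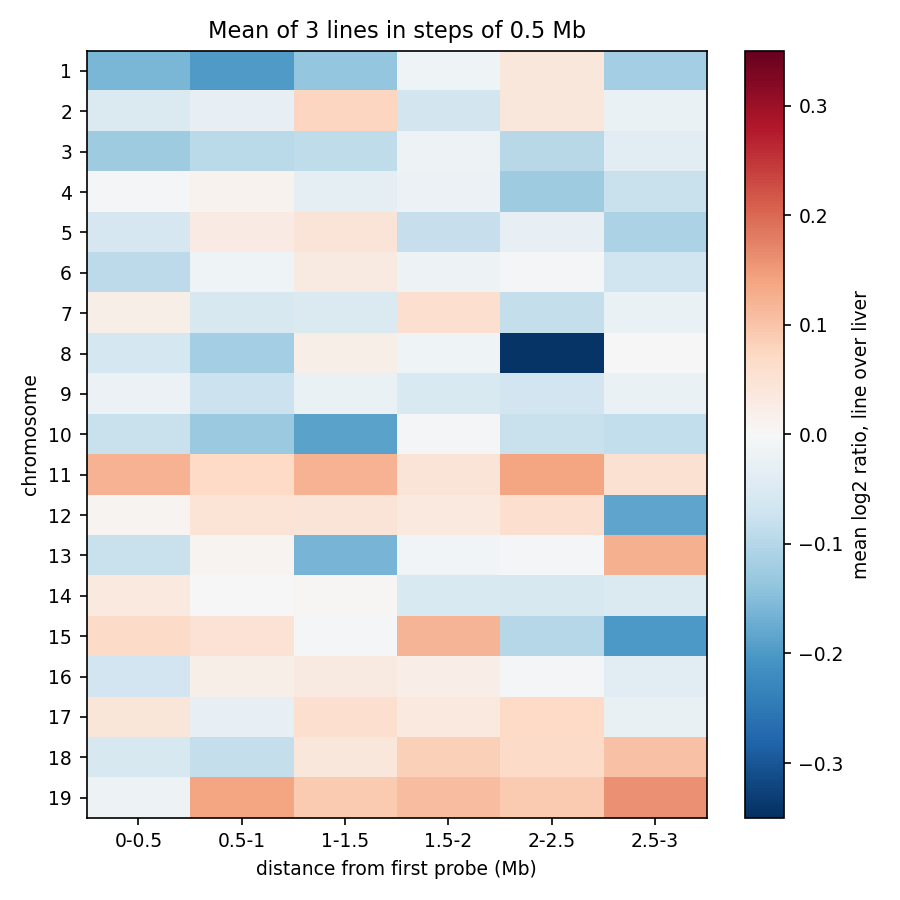
Mean log2 ratio over the 3 lines (colour) in steps of 0.5 Mb from the first probe (x axis, Mb) for each autosome (y axis). Blue is below and red above liver. The darkest step, at 2 to 2.5 Mb on chromosome 8, is at -0.34. Chromosomes 11 and 19 are mostly red and the first 3 steps and the last step of chromosome 1 are blue.

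Genes in the windows were compared next. The windows held 583 gene names of the array design, of which 404 matched a current mouse symbol, 49 a synonym and 130 neither. With at least 3 probes, 235 were tested, and 55 passed limma (23.4%) where 24.2% of all 9502 genes did. Of these, 24 (10.2%) were above 0, where 14.2% of all genes were, and 31 (13.2%) were below 0, where 9.99% were. With at least 1 probe per gene the balance turned, to 94 above and 51 below 0 among 583 (24.9%, background 22.5%). No share by direction over all genes is given for this setting, so the turned balance is not a result about the windows. The median gene of the windows was at -0.013 and that of all genes at 0.011. Chromosome 19 had 5 genes above and 1 below among 20 tested, chromosome 11 had 4 above and 1 below among 23, and chromosome 1 had 0 above and 3 below among 8.

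Genes that had been listed for their function, whatever their value, number 29. Of these, 25 had a probe of their name in a window and 20 could be tested. No listed gene passed above 0, 3 passed below 0 and 17 did not pass, where 14.2% of all genes passed above 0 and 9.99% below. The 3 were Crem, Rp1 and Xkr4. Crem (chr18:3269244-3325578, 6 probes), which encodes a transcription factor that responds to cyclic AMP, read -0.22, -0.22 and -0.24, a mean of -0.23 ± 0.014 (SD, n = 3) with an adjusted p of 0.00818 by limma. Rp1 (chr1:4283616-4373087, 7 probes), a microtubule-associated protein of photoreceptors, read -0.16, -0.19 and -0.14 (adjusted p = 0.0227). Xkr4 (chr1:3214628-3658145, 45 probes) read -0.10, -0.19 and -0.13 (adjusted p = 0.0420). With lines 2 and 3 averaged as 1 sample, the adjusted p was 0.0514 for Crem, 0.0981 for Rp1 and 0.166 for Xkr4, so none of the 3 calls held.

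Receptors and signalling genes of the list did not pass with the values reported here. Insr, the insulin receptor (chr8:3154240-3271841, 14 probes), read -0.16, -0.067 and -0.026 in lines 1, 2 and 3 (adjusted p = 0.187). Lyn, a kinase of the Src family (chr4:3608682-3710403, 8 probes), read 0.11, 0.087 and 0.11 (adjusted p = 0.0863). Esr1, the estrogen receptor alpha (chr10:5348925-5732199, 37 probes), read -0.069, -0.078 and -0.11 (adjusted p = 0.139). Insr and Esr1 were below 0 and Lyn above 0 in every line, each by far less than a copy. Ghr, the growth hormone receptor (27 probes), read 0.035, 0.022 and 0.077, and Lrp5, a Wnt co-receptor (10 probes), -0.17, -0.046 and -0.058.

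Among growth regulators and tumour suppressors, Cdk6, a kinase that drives entry into S phase (chr5:3351352-3517971, 13 probes), read -0.16, -0.0026 and -0.021. Nf2, which encodes the tumour suppressor merlin (chr11:4674295-4746298, 8 probes), read 0.19, 0.00091 and 0.0066. Both stood apart from 0 in line 1 alone, in opposite directions, and lay within 0.022 of 0 in lines 2 and 3. The sign of Nf2 depended on processing. Its mean was 0.067 here and 0.096 with medians of probes, but -0.089 after normexp and -0.054 with dim probes left out. Cdk6 stayed below 0 in these settings. Crebbp, a histone acetyltransferase (15 probes), averaged 0.0056 with mixed signs. Plag1, a zinc finger transcription factor (3 probes), read -0.28, 0.21 and 0.36, the widest spread of the listed genes that were tested. A pair of imprinted neighbours on chromosome 6 were both above 0 in every line: Sgce (8 probes) at 0.15, 0.029 and 0.11, and Peg10 (1 probe, not tested) at 0.13, 0.26 and 0.20. The other listed genes tested were between -0.071 (Oxct1) and 0.074 (Trap1) in the mean. Processing mattered for some listed genes. Trap1 turned to -0.12 after normexp. Hnf4g, at -0.020 here, passed limma after normexp (-0.17, adjusted p = 0.0182) and loess (-0.14, adjusted p = 0.0378). Sgce passed after normexp (0.15, adjusted p = 0.0362) and in the authors' value table (0.18, adjusted p = 0.0218). Lrp5 passed in that table (-0.16, adjusted p = 0.0309).

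Next come genes with the most probes in their window. Fhit on chromosome 14, a large gene in a fragile site, has 165 probes of which 118 are in the window, and read -0.058, -0.054 and -0.025 (adjusted p = 0.412). Cdk14 on chromosome 5 (58 probes) read -0.067, -0.093 and -0.077 (adjusted p = 0.166), and Syne1 on chromosome 10, a nuclear envelope protein (38 probes), read -0.10, -0.13 and -0.14 (adjusted p = 0.0518). Cdk14 and Syne1 were low in every line but did not pass. AY082013 on chromosome 19 (22 probes) read 0.098, 0.13 and 0.17 (adjusted p = 0.0461) and X16670 on chromosome 4 (25 probes) -0.19, -0.17 and -0.10 (adjusted p = 0.0319). The AY082013 values include a probe at 1.53, 0.84 and 1.00, where liver was not well above background on the array of line 1. Osbp2 on chromosome 11 (16 probes), which encodes an oxysterol-binding protein, read -0.036, 0.11 and -0.0030 in a window that averaged 0.090. The means of these genes lay within 0.16 of 0, and the larger shifts that follow come from names with 3 to 7 probes.

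Among genes past limma with 1 sign in all lines and at least 3 probes, the 10 with the largest means above 0, at most 3 per chromosome, were Mtpap, Nlrp12, ENSMUST00000096325, Ccl25, Chka, 2810032G03Rik, Dnaja3, Tbc1d10a, AK138232 and Krit1, from 0.34 down to 0.20. Nlrp12 (chr7:3225136-3249710, 4 probes), a receptor of the NLR family in innate immunity, read 0.32, 0.30 and 0.40 (mean 0.34 ± 0.050, SD, n = 3; adjusted p = 0.00425). Liver was not well above background on any array at 1 of its 4 probes, and without that probe the mean was 0.17 (adjusted p = 0.0170). Ccl25 (chr8:4334459-4357904, 3 probes), a chemokine that attracts thymocytes, read 0.26, 0.28 and 0.27 (adjusted p = 0.00576). Both were even across lines, whereas Mtpap, the mitochondrial poly(A) polymerase (3 probes), read 0.63, 0.19 and 0.20. Mtpap turned to -0.059 after normexp (adjusted p = 0.455). Chka, a choline kinase (3 probes), read 0.42, 0.24 and 0.13, and fell to 0.067 after normexp. Dnaja3, a mitochondrial co-chaperone, read 0.31, 0.18 and 0.16, and Krit1, a scaffold protein of endothelial junctions, read 0.34, 0.049 and 0.22. After normexp, Krit1 was at 0.077 (adjusted p = 0.303) and AK138232 at 0.051 (adjusted p = 0.529).

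By the same rule, the 10 with the lowest means were Pnpla6, AK089206, Ppp6r1, Syt12, Emid1, BC023070, ENSMUST00000131498, 9430041J12Rik, ENSMUST00000097689 and Crem, from -0.39 to -0.23. Pnpla6 (chr8:3521702-3534019, 3 probes), a phospholipase of neurons also called neuropathy target esterase, read -0.54, -0.27 and -0.36 (mean -0.39 ± 0.13, SD, n = 3; adjusted p = 0.0055). Ppp6r1 (chr7:4587363-4608382, 3 probes), a regulatory subunit of protein phosphatase 6, read -0.31, -0.18 and -0.34. Syt12 (chr19:4459054-4472341, 3 probes), a synaptotagmin, read -0.40, -0.21 and -0.20, inside the window with the highest mean. BC023070 (chr15:5458409-5536180, 7 probes) read -0.32, -0.21 and -0.20. After normexp, Ppp6r1 was at -0.051 and Syt12 at -0.036 and neither passed. Nlrp12 and Ccl25 above 0, and Pnpla6, AK089206, BC023070 and 9430041J12Rik below 0, passed under each of 11 alternatives. ENSMUST00000096325 passed under the 9 that left it enough probes.

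**Figure D4:**
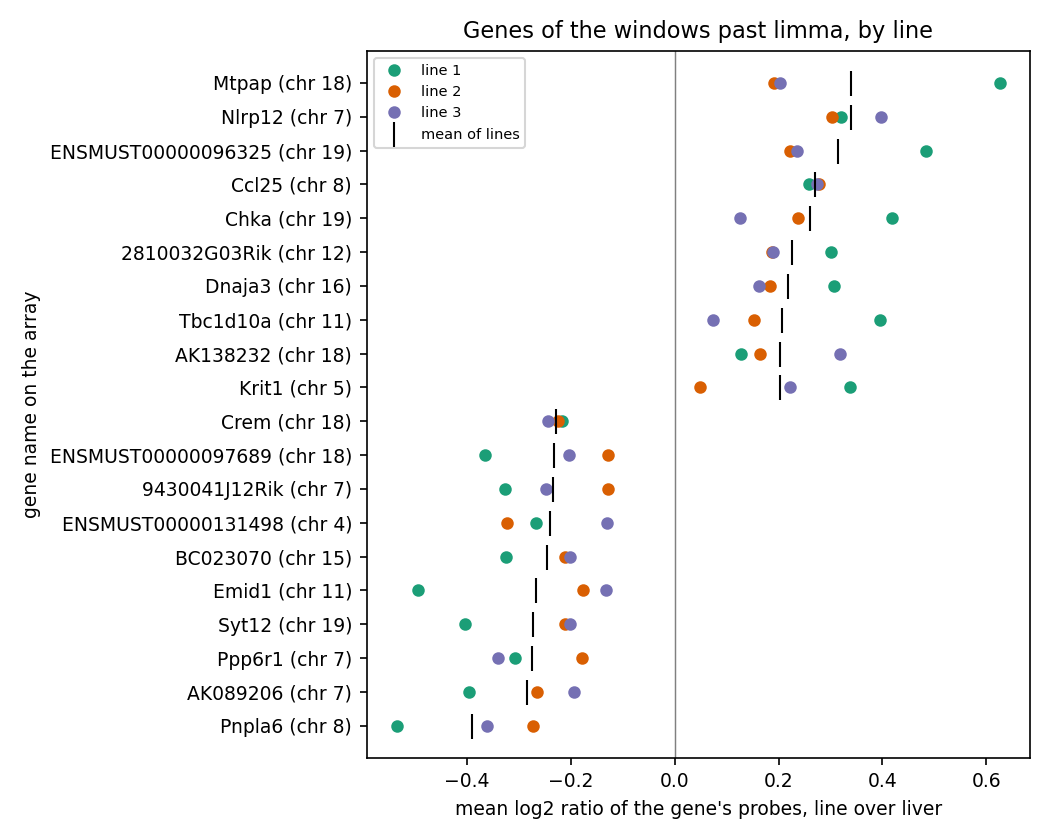
Mean log2 ratio of each gene's probes (x axis) for the 20 genes of the windows with the largest shifts past limma (y axis, with chromosome). Points are the 3 lines and bars their mean. Means run from 0.34 (Mtpap, Nlrp12) to -0.39 (Pnpla6), and line 1 is often the outermost point.

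Single probes were as variable as elsewhere. Of 3997 window probes tested, 1352 passed limma (33.8%, background 33.5%), with 627 above and 725 below 0. A log2 ratio of at least 1 in size in some line was seen in 56 (1.40%), where 1.36% of autosomal probes reached it. It was 1 or more above 0 in 39 (0.976%, background 0.922%) and -1 or less in 17 (0.425%, background 0.441%). In both lines 2 and 3 it was at least 1 in 3 window probes (0.0751%, background 0.0619%). The most extreme probes, 1 per chromosome, are shown because theirs are the largest single ratios, first the 3 highest and then the 3 lowest.
chr15:3850897-3850956: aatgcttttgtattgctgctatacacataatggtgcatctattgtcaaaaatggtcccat
chr11:3372331-3372390: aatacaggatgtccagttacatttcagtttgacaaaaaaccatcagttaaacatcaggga
chr19:4848360-4848419: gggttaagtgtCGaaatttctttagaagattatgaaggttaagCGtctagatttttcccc
chr13:3345824-3345883: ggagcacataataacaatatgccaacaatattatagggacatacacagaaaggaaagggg
chr17:5267871-5267930: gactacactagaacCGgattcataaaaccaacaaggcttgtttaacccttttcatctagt
chr1:3475830-3475889: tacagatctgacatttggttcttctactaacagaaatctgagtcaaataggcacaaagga

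The chromosome 15 probe read 0.87, 1.60 and 2.12 in lines 1, 2 and 3, and liver was not well above background there on any of the 3 arrays. In the mean over the 3 lines, the line was at least 1.83-fold higher than liver. The liver's bound was the lowest signal among probes well above background. Both channels were first normalised by loess within arrays and by Aquantile between arrays. This bound is for the mean and not for each line, and with 0 dye swaps it is open to dye bias. The probe's 2 neighbours within 50 kb averaged 0.29. The chromosome 11 probe, in 8430429K09Rik, read 0.30, 1.24 and 2.22, also with liver not well above background on 3 arrays and the line not well above background on 1 of them. The chromosome 19 probe, in AY082013, read 1.53, 0.84 and 1.00, with liver well above background on 2 of 3 arrays. A probe on chromosome 17 (chr17:5480023-5480082) was lower but measured on both sides on all 3 arrays, at 0.93, 0.78 and 0.66.

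Liver was well above background at all 3 of the lowest probes. The chromosome 13 probe read -1.28, -0.76 and -0.57 at liver intensities of 18574, 13441 and 12529, and its 3 neighbours within 50 kb averaged -0.25. The chromosome 17 probe, in Arid1b, a subunit gene of the BAF chromatin remodelling complex, read -1.15, -0.67 and -0.73, and its 11 neighbours averaged 0.050. The chromosome 1 probe, in Xkr4, read -0.89, -0.83 and -0.67, and its 10 neighbours averaged -0.12. Line 1 was the most extreme for all 3, and no extreme probe shared 20 letters in a row with another probe of the array.

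The relation of ratio to brightness held in the windows as in the rest. Split into 5 classes of equal size over the autosomes by the mean intensity of both channels, window probes averaged 0.21, 0.087, -0.016, -0.11 and -0.21 from the dimmest to the brightest class, and the rest of the autosomes 0.21, 0.096, 0.013, -0.074 and -0.21. Dim probes thus read above and bright probes below 0 in every line. In classes 3 and 4 the windows were lower than the rest in all 3 lines. Noise was similar: the SD of differences between neighbouring probes was 0.548, 0.339 and 0.357 in the windows and 0.548, 0.333 and 0.346 in the rest. Liver was well above background for 96.5%, 98.7% and 99.0% of window probes, and 0 were saturated.

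**Figure D5:**
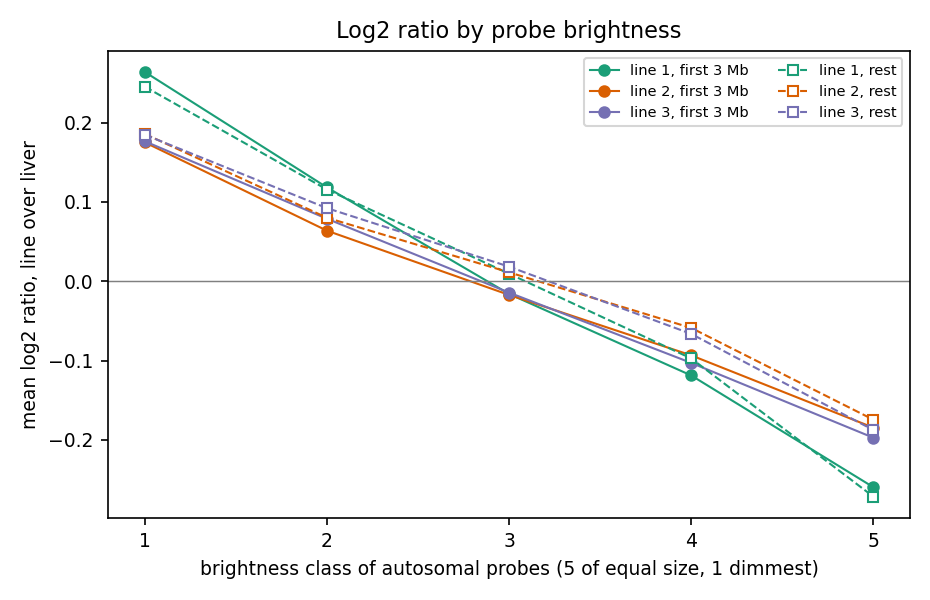
Mean log2 ratio (y axis) by class of brightness of autosomal probes, 5 of equal size from dimmest (1) to brightest (5) (x axis), for window probes (filled circles) and the rest of the autosomes (open squares) in each line. The mean ratio falls from 0.21 to -0.21 in both sets.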

How the data were processed

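Per the file headers, the authors' scanner files came from Agilent Feature Extraction 10.7.3.1 with mm9 coordinates, and their processed intensity values are background-subtracted, detrended and linearly dye-normalised. Log10 ratios of both dyes stand beside them in the deposited files. A deposited table of values is on the log10 scale too, and its columns have medians of 0.000435, -0.00146 and -0.00271. Scanner log ratios regressed on it gave slopes of 1.00, 1.01 and 0.998 at r = 0.867, 0.844 and 0.884, which fixes direction and scale, while its centring stays unknown.

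From 180880 spots, 6575 controls and spots marked as outliers were left out and spots of 1 probe averaged. The log2 ratio of processed Cy5 over Cy3 was centred on each array's autosomal median. Windows (at least 20 probes), probes and genes (means of at least 3 probes of 1 name, with 50% or more of them in a window) were tested against 0 over the 3 lines with limma 3.58.1 (lmFit, eBayes, Benjamini-Hochberg over all features, threshold 0.05) in R 4.3.3. Single values had an exact sign-flip permutation test. Lines 2 and 3 count as separate samples although they share an animal number. Nothing says they are independent cultures beyond their labels. A p-value reflects only how these 3 lines scatter, and eBayes pools that scatter over features. For the 19 windows all had the same standard error, so an adjusted p does not measure the SD printed beside it. The number of arrays limits precision. Summaries were made in Python 3.11.15 with pandas 2.3.3, numpy 2.4.6 and scipy 1.17.1. The limma step was also run on simulated data with independent noise in each line. Those data lack the slide, dyes and probes that the arrays share, so that run cannot speak to such shared effects.

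The members, gene lists and tests were chosen with earlier results of these data known. Named genes are 29 listed genes, up to 10 tested genes each way with 1 sign in all lines and at most 3 per chromosome, the first named and most probed gene of each window, first probes, and up to 6 extreme probes each way. Gene names are those of the array design, matched to a RefSeq table of GRCm38.p6. Exon, intron and UTR annotation of mm9 was not used here.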

Additional observations from a re-analysis of the deposited data

How the results depend on the processing

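Of 131 values under alternatives, 106 were classed as the same as the reported ones, 25 as moved and 0 as reversed. The first class took in sizeable shifts. The mean level of the windows was -0.027 with dim probes left out and -0.021 after loess, against -0.013. Probes past limma numbered 947 after loess (background 23.3%), against 1352 (background 33.5%). The classes also leave aside the balance of genes, which turned to 94 above and 51 below 0 with at least 1 probe per gene. For that setting no share by direction over all genes is given. The mean level of the windows and their differences from the rest of the chromosome and from the distal ends kept their direction under every alternative. Windows past limma numbered 5 to 7 when 1 line was left out (background 22.4% to 35.2%) and 5 with lines 2 and 3 averaged (background 15.9%), which has fewer samples. Probes past limma numbered 755 to 1911 with 1 line left out (background 17.7% to 46.9%), 827 of 3528 in the authors' value table (background 22.8%), 473 in 1 Mb windows and 2110 in 5 Mb windows (background 33.5%). Genes past limma numbered 22 to 79 with 1 line left out (background 10.9% to 34.0%), 22 in 1 Mb windows (background 24.2%), 13 with lines 2 and 3 averaged (background 6.88%) and 145 with at least 1 probe per gene (background 22.5%). Leaving out saturated probes and asking for 10 probes in place of 20 changed no window. The probe spread over the rest was 1.05 at 1 Mb against 1.02. Correlations between lines 1 and 3 were 0.611 after normexp, 0.743 after loess and 0.733 in 2 Mb windows, and that of lines 2 and 3 was 0.876 in 5 Mb windows. For lines 1 and 2, 1 and 3, and 2 and 3 they were 0.717, 0.676 and 0.922 in the value table, 0.818, 0.736 and 0.885 in 1 Mb windows and 0.792, 0.680 and 0.748 with medians. Apart from the changes made by fewer or more features or samples, the cause was not tested. No paired analysis was possible because all 3 lines belong to 1 group. Dim probes limit the extreme ratios, since liver was not well above background at several of them.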
